A study of Mus musculus with 8 samples.

Results

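Small RNA sequencing of mouse islet cells had been used to measure transfer RNA-derived fragments (tRFs), and the 12 fragments of the nuclear tRNA-His-GTG, the tRNA that reads histidine codons, are described here. They are all the tRNA-His-GTG fragments among the 112 tRFs in the authors' deposited tables, with 9 of the 29 listed up after cytokine exposure and 3 of the 83 listed down. The members were therefore selected on the cytokine against control difference in these same libraries. Their values in that contrast are given as a description and were not tested again. The values taken to have chosen them were the authors' edgeR false discovery rates (FDR). These lay between 1.71e-05 and 0.0466 for these fragments and reached 0.0489 among all listed tRFs. A threshold of 0.05 was inferred from that largest value. Whether a limit on fold change or p was also applied was not examined. The 2 members nearest to this threshold, at positions 0–33 and 4–30, both had an FDR of 0.0466. No tRFs past it were analysed here.

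Islet cells of 12-week-old C57BL/6NRj mice had been dissociated and cultured for both groups, and the labels describe them as chiefly beta and alpha cells. The control group was 4 untreated libraries. The cytokine group was 4 libraries of cells exposed for 24 h to IFN-γ at 30 ng/mL, TNF-α at 10 ng/mL and IL-1β at 0.1 ng/mL. The labels leave unsaid whether each library had its own animals or culture, the spread between libraries may be technical, and no mRNA was measured against which the cell types could be checked. The effective library sizes, recovered from the authors' values, ran from 367454 to 939108 reads. A level of 3 reads therefore equalled 3.19 to 8.16 CPM, where CPM is the reads of a fragment per 1000000 reads of effective size.

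A tRNA folds into an acceptor stem and 3 hairpin arms, the D arm, the anticodon arm and the T arm. Enzymes such as angiogenin cut tRNAs in exposed loops, and cuts in the anticodon loop split the tRNA into a 5′ and a 3′ piece that accumulate in stressed cells. Fragments with both ends inside the tRNA are called internal. In animals, tRNA-His is unusual in that the enzyme THG1L adds a guanosine in front of the first base of the transcript, a base the histidyl-tRNA synthetase reads when it attaches histidine. In the authors' numbering that place is position 0, and the anticodon lies at positions 34 to 36.

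The sequences of 7 fragments, as deposited, show where the ends fall. The 3 listed down are followed by 3 forms of the main internal fragment and by the only listed member that reaches the 3′ end of the gene. Capitals mark the anticodon and the base at position 0.
5′ piece, positions 0–33, listed down: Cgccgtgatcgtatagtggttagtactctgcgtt
5′ fragment, positions 0–53, listed down: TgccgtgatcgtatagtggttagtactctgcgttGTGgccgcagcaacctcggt
Internal, positions 4–30, listed down: gtgatcgtatagtggttagtactctgc
Internal, positions 17–53, listed up: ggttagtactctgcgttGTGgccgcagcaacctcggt
Internal, positions 21–52, listed up: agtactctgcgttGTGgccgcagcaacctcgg
Internal, positions 21–53, listed up: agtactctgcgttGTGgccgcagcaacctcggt
Internal, positions 40–72, listed up: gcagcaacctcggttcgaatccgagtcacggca

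Of the 9 fragments listed up, 8 start at positions 17 to 21 and end at positions 52 to 54, and all 8 hold the 32 bases of the 21–52 fragment with the anticodon near their centre. The T arm, found as a stem of 5 pairs at 48–52 and 60–64, has its loop at 53–59. The D arm, placed at its textbook position, has its loop at 14–21. These 8 fragments thus begin in the D loop, and end at the last base of the 5′ strand of the T stem or at the first bases of the T loop. They run through the whole anticodon arm, whose stem pairs 27–31 with 39–43 around a loop at 32–38. The ninth, 40–72, begins in the 3′ strand of the anticodon stem and stops at the last base before the CCA tail.

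The 3 fragments listed down all start near the 5′ end of the tRNA, at position 0 or 4. The 0–33 fragment, which the authors class as 5-tRH, a 5′ piece cut near the anticodon, stops at the base before the anticodon. The 0–53 fragment ends at the same base as the most abundant fragment listed up, and differs from it by the bases from 0 to 20. The 4–30 fragment stops inside the 5′ strand of the anticodon stem. Among the 112 listed tRFs, 2 start at position 0, and both are from tRNA-His. Their deposited base there was C in one and T in the other, with 0 showing the G that THG1L adds; how the authors matched this position is not given in the sources used here.

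**Figure D1:**
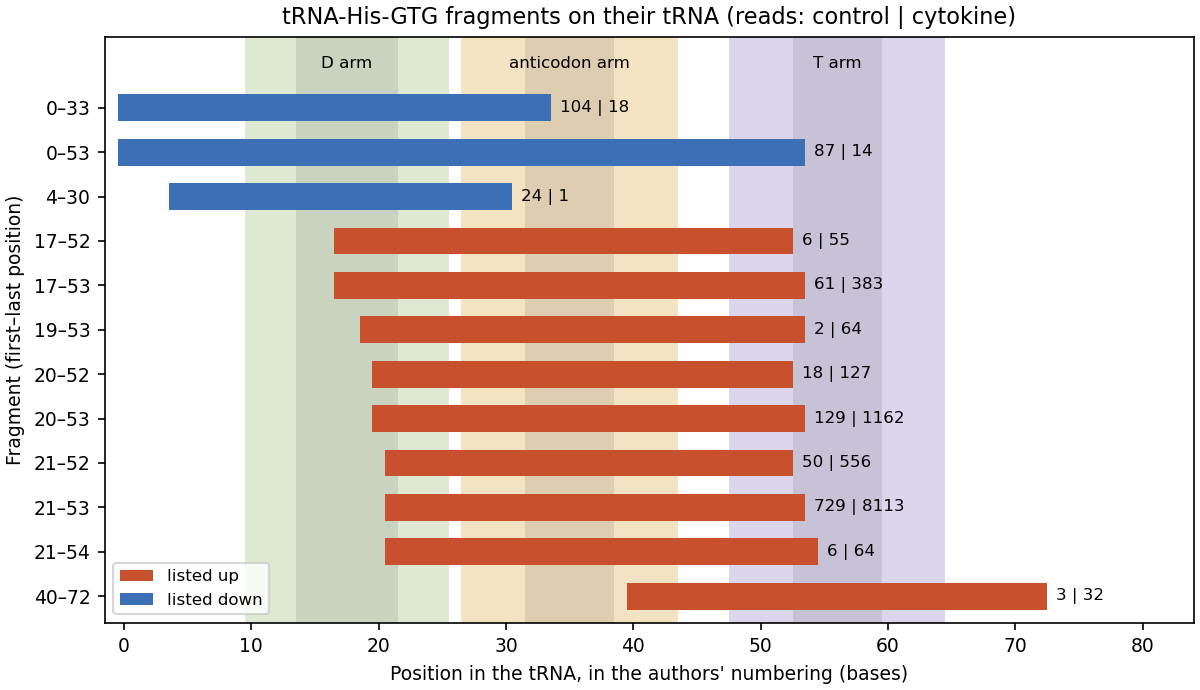
Each bar is a listed tRNA-His-GTG fragment drawn from its first to its last position (x axis, bases in the authors' numbering), with the reads summed over the 4 control and the 4 cytokine libraries beside it. The D, anticodon and T arms are shaded with their loops darker; the 3 fragments listed down start at positions 0 to 4, and 8 of the 9 listed up start at 17 to 21. Those 8 and the listed-down 0–53 span the anticodon arm.

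The reads cannot be assigned to single genes. The 9 fragments listed up match 9 genes, the 8 copies of His-GTG-2 and the single His-GTG-3, while the 3 listed down match the 8 His-GTG-2 copies alone, so the parents differ somewhere in positions 4 to 16. Of these 9 genes, 3 are on chromosome 2, 5 on chromosome 3 and 1 on chromosome 4. The deposited tables give no coordinates. RefSeq (GRCm38.p6) lists 10 histidine tRNA loci of 72 bases each, 3 on chromosome 2 between 122375494 and 122378039, 6 on chromosome 3 between 96410069 and 96500437, and 1 on chromosome 4 at 82619623–82619694. In GENCODE 3 of the 10 lie within another gene, in BC107364, in the lincRNA Gm10685 and, on chromosome 4, in Nfib, which encodes a transcription factor, and 0 overlap an exon. The 9 genes could not be matched to these loci one by one.

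The internal fragments listed up were about 10 times more abundant in the cytokine libraries when summed. Their sum was 731, 255, 282 and 318 CPM in control replicates 1 to 4, and 2811, 2087, 5679 and 5659 CPM in cytokine replicates 1 to 4. The lowest cytokine library thus stood well above the highest control library, which was control replicate 1. Means were 397 ± 224 CPM (SD, n = 4) and 4059 ± 1882 CPM (SD, n = 4), a 10.2-fold ratio and a difference of 3.36 between the mean log2 values. In bulk samples of this kind, a change in the make-up of the cells and a change in RNA per cell cannot be told apart.

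Set against the other listed tRFs, the same 9 fragments held 2.81% of the control reads and 45.6% of the cytokine reads of all 112. By library the share was 1.81 to 5.24% in the controls and 35.4 to 48.9% after cytokines. The listed tRFs held 4904 to 11577 reads in a control library and 2659 to 11107 in a cytokine library. These shares need no library size, but both sides of the ratio were chosen by the listing.

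The 21–53 fragment, 33 bases long, held most of these reads and was the most abundant tRNA-His-GTG fragment in all 8 libraries. It was counted 362, 135, 86 and 146 times in control replicates 1 to 4 and 823, 724, 2486 and 4080 times in cytokine replicates 1 to 4. Its levels were 543, 171, 231 and 221 CPM in the controls and 2240, 1558, 4358 and 4345 CPM after cytokines. Control replicate 1 was the highest control and cytokine replicates 3 and 4 were nearly equal at the top. The log2 fold change was 3.42 ± 0.49 (SE) in an edgeR fit of all 112 listed tRFs, and the mean CPM was 10.7 times that of the controls. The SE given here and below rest on the spread of these listed tRFs alone and may be too small.

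The 20–53 fragment, longer by 1 base at its 5′ end, had 94.6, 34.1, 29.5 and 42.4 CPM in the controls and 318, 230, 659 and 598 CPM in the cytokine libraries. Its libraries ranked within the cytokine group much as those of 21–53, with replicates 3 and 4 above replicates 1 and 2. Its log2 fold change was 3.15 ± 0.46 (SE).

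The 21–52 fragment, shorter by 1 base at its 3′ end, had 31.5, 17.7, 10.7 and 16.7 CPM in the controls and 144, 96.8, 263 and 328 CPM after cytokines. The groups lay far apart, and the log2 fold change was 3.40 ± 0.47 (SE).

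The 17–53 fragment reaches 4 bases further into the D loop than 21–53. It had 34.5, 18.95, 5.37 and 31.8 CPM in the controls and 54.4, 108, 231 and 193 CPM after cytokines. Cytokine replicate 1 was here less than 2 times control replicate 1, so the groups were separate but close. The log2 fold change was 2.65 ± 0.50 (SE).

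The 20–52 fragment combines the shifted start with the shorter end. Its levels were 15.01, 7.58, 5.37 and 0 CPM in the controls and 21.8, 28.0, 59.6 and 76.7 CPM after cytokines. It was not detected in control replicate 4, where the level of 3 reads was 4.55 CPM. Its log2 fold change of 2.71 ± 0.62 (SE) became 3.40 without control replicate 1, which held 10 of its 18 control reads. Without control replicate 4 it became 2.29.

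The other 4 fragments listed up rested on few control reads. The 17–52 fragment had 0 to 4 reads in a control library and 5 to 29 in a cytokine library. Its log2 fold change of 3.08 ± 0.66 (SE) was 4.09 without control replicate 4 and 2.80 without cytokine replicate 4. The 21–54 fragment, the only member with a last position of 54, had 0 to 3 and 4 to 37 reads and a log2 fold change of 3.26 ± 0.71 (SE). Both were at or near the limit of detection in the controls.

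The 19–53 fragment had 2 reads in all controls, both in control replicate 1, against 1, 13, 16 and 34 in the cytokine libraries. The pooled reads per effective size were 34.02 times higher after cytokines, with an exact 95% interval of 9.04 to 287 that covers counting error only. Without control replicate 1 the control reads were 0. Taking 3 reads in the group as the floor, the pooled level was then at least 16.6-fold higher after cytokines. The 40–72 fragment had 3 control reads and 32 cytokine reads, a pooled ratio of 11.3 with an interval of 3.55 to 57.9. It was detected in all 4 cytokine libraries, with 2, 8, 11 and 11 reads. Its fitted log2 fold change was 3.31 ± 0.74 (SE), and 4.21 without control replicate 1.

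Both fragments that start at position 0 were lower in every cytokine library than in any control. The 0–33 piece was counted 19, 21, 24 and 40 times in the controls and 7, 2, 4 and 5 times after cytokines. Its levels were 28.5, 26.5, 64.5 and 60.6 CPM in control replicates 1 to 4 and 19.1, 4.30, 7.01 and 5.32 CPM in cytokine replicates 1 to 4. Control replicates 3 and 4 were about 2 times replicates 1 and 2, and cytokine replicate 1 stood above the other 3. The mean was 5.05 times lower, and the log2 fold change was -2.41 ± 0.56 (SE). With single libraries left out, the mean was from 4.30 times lower, without cytokine replicate 2, to 8.12 times lower, without cytokine replicate 1.

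The 0–53 fragment was counted 14, 20, 10 and 43 times in the controls and 2, 2, 6 and 4 times after cytokines. Its levels were 21.01, 25.3, 26.9 and 65.2 CPM in the controls and 5.44, 4.30, 10.5 and 4.26 CPM after cytokines. Control replicate 4 was far above the other controls, and the groups did not overlap. The mean was 5.64 times lower, and the log2 fold change was -2.48 ± 0.57 (SE).

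The 4–30 fragment, internal by the authors' class with its first base near the 5′ end, was counted 7, 4, 8 and 5 times in the controls and 0, 0, 0 and 1 times after cytokines. In CPM the controls were at 10.5, 5.05, 21.5 and 7.58, and the single cytokine read, in replicate 4, was 1.06 CPM. The pooled level was 22.6 times higher in the controls, with an exact 95% interval of 3.68 to 928. Without cytokine replicate 4 it was at least 4.51-fold higher in the controls, against the same floor. Its fitted log2 fold change was -4.07 ± 0.88 (SE), -5.55 without that library and -3.67 without control replicate 3. In the authors' deposited table its DESeq adjusted p was 0.066, while the other 11 members were under 0.05 there.

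**Figure D2:**
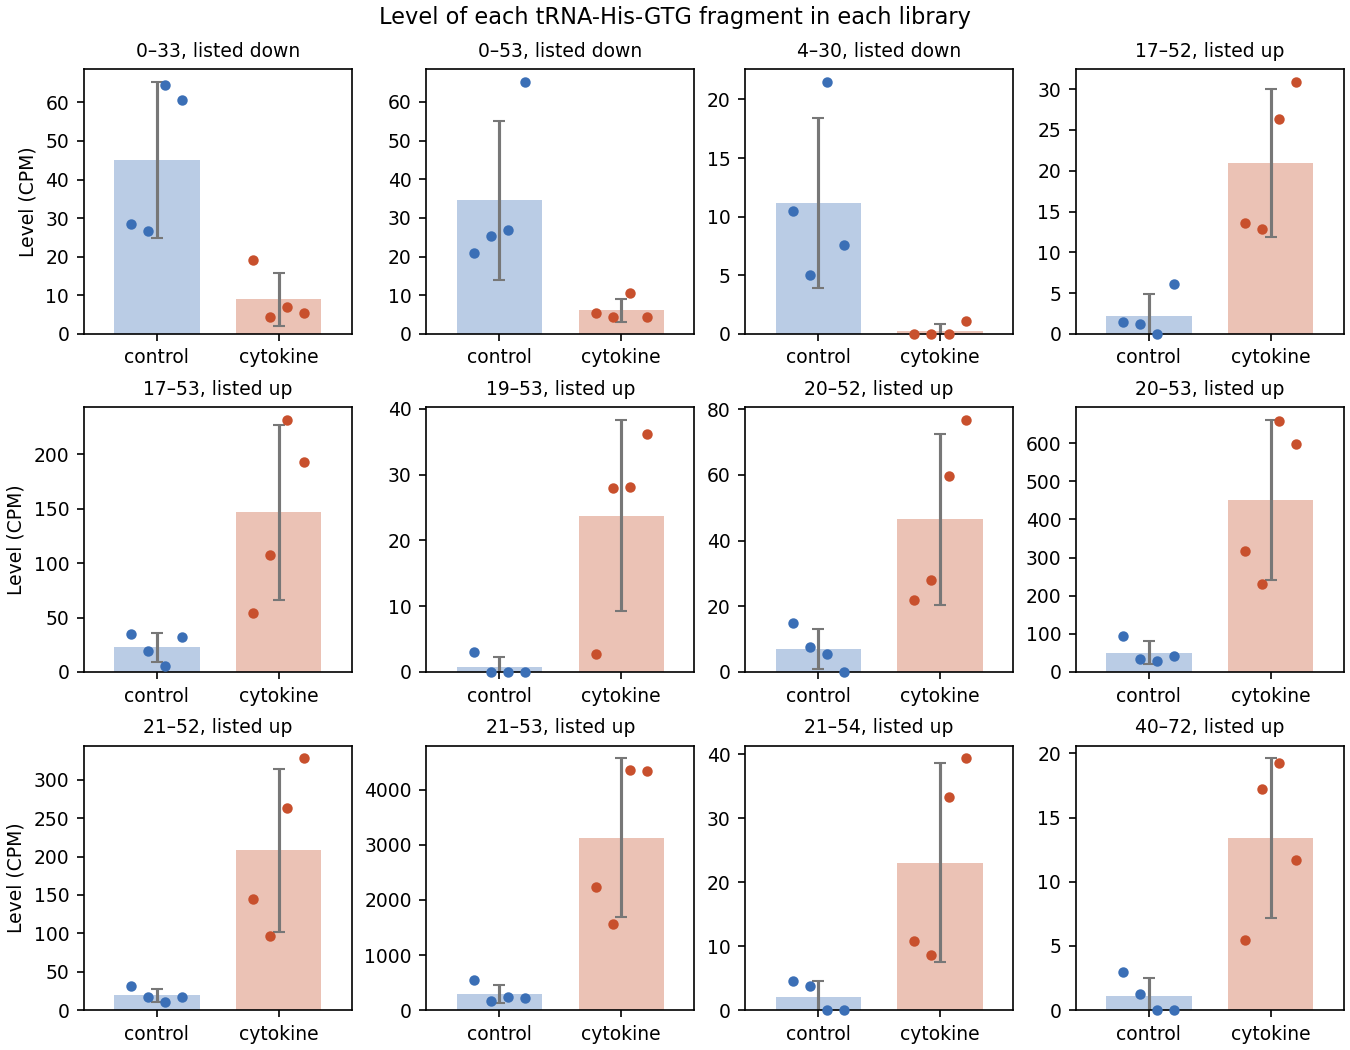
Each panel shows 1 tRNA-His-GTG fragment, with its level in CPM (y axis, own scale from 0) in the 4 control and 4 cytokine libraries as points in replicate order, and the mean ± SD as bars. The groups did not overlap in 11 panels; in the panel for 19–53 cytokine replicate 1, at 2.72 CPM, lies below control replicate 1, at 3.00 CPM.

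The levels of both groups did not overlap for 8 of the 9 members listed up, where 96.6% of all tRFs listed up did not overlap, and for 3 of the 3 listed down, where 98.8% of all listed down did not. The shares of members are near these backgrounds, and the listing itself used the same contrast. The number of tRFs that the authors tested, 31661, was inferred from the deposited FDR, its rank and the p-value. It was the number obtained at 85 of the 112 ranks. Of that inferred number, 0.0916% were listed up and 0.262% down. The median log2 fold change of the 9 members listed up was 3.26, beside 3.11 for all 29 listed up. The median of all 83 listed down was -2.60, and 0–33 and 0–53 lay on the smaller side of it and 4–30, at -4.07, on the larger side.

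The order of the libraries was similar for most of the internal fragments. Control replicate 1 was the highest control for 8 of the 9 members listed up, and in the cytokine group replicates 3 and 4 both lay above replicates 1 and 2 for 8 of the 9. Over all 29 tRFs listed up, which include these members, these orders held for 15 and for 16. Among the 20 listed up from other tRNAs they held for 7 and for 8. Cytokine replicates 3 and 4 also had the larger effective sizes, 570382 and 939108 reads against 367454 and 464770, whereas among the controls replicate 1 was second in size with 666241 reads. The part of library size in these levels was not tested.

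The make-up of the reads was compared within the 9 internal fragments listed up. All 9 were chosen for being higher after cytokines, and neither unlisted fragments nor the internal 4–30 enter the total, so the selection partly fixes how alike the groups are. The 21–53 fragment held 74.3, 66.8, 81.9 and 69.5% of these reads in control replicates 1 to 4 and 79.7, 74.6, 76.8 and 76.8% in cytokine replicates 1 to 4. The controls ranged on both sides of the cytokine libraries. Means were 73.1 ± 6.61% (SD, n = 4) and 77.0 ± 2.07% (SD, n = 4), a difference of 3.81 percentage points that was smaller than the spread between the controls. The exact 95% binomial interval was widest in control replicate 3, at 73.2 to 88.7% of 105 reads, and narrowest in cytokine replicate 4, at 75.6 to 77.9% of 5314 reads.

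By first position, reads from 21 made up 78.7 ± 5.06% (SD, n = 4) in the controls and 82.5 ± 2.31% (SD, n = 4) after cytokines, and reads from 20 made up 14.3 ± 1.75% and 12.3 ± 0.32%. Reads from 17 made up 6.66 ± 4.27% and 4.17 ± 1.39%. For these 3 first positions the ranges of the groups overlapped, and the first position 21, the last base of the D loop, led in every library.

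By last position, reads ending at 53 made up 91.8 ± 2.89% (SD, n = 4) in the controls and 92.4 ± 0.76% (SD, n = 4) after cytokines, and reads ending at 52 made up 7.46 ± 2.05% and 6.71 ± 0.69%. Among reads that start at 21, pooled over the libraries of a group, there were 14.6 ending at 53 for each ending at 52 in both groups, from 729 and 50 control reads and 8113 and 556 cytokine reads. By library this ratio was 17.2, 9.64, 21.5 and 13.3 in the controls and 15.5, 16.1, 16.6 and 13.2 after cytokines, so the control libraries lay on both sides of the cytokine libraries. For reads that start at 20, the pooled ratio was 7.17 in the controls and 9.15 after cytokines, with 18 control reads ending at 52. For reads that start at 17 it was 10.2 and 6.96, with 6 control reads ending at 52. The groups thus stood in opposite orders at these 2 first positions.

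**Figure D3:**
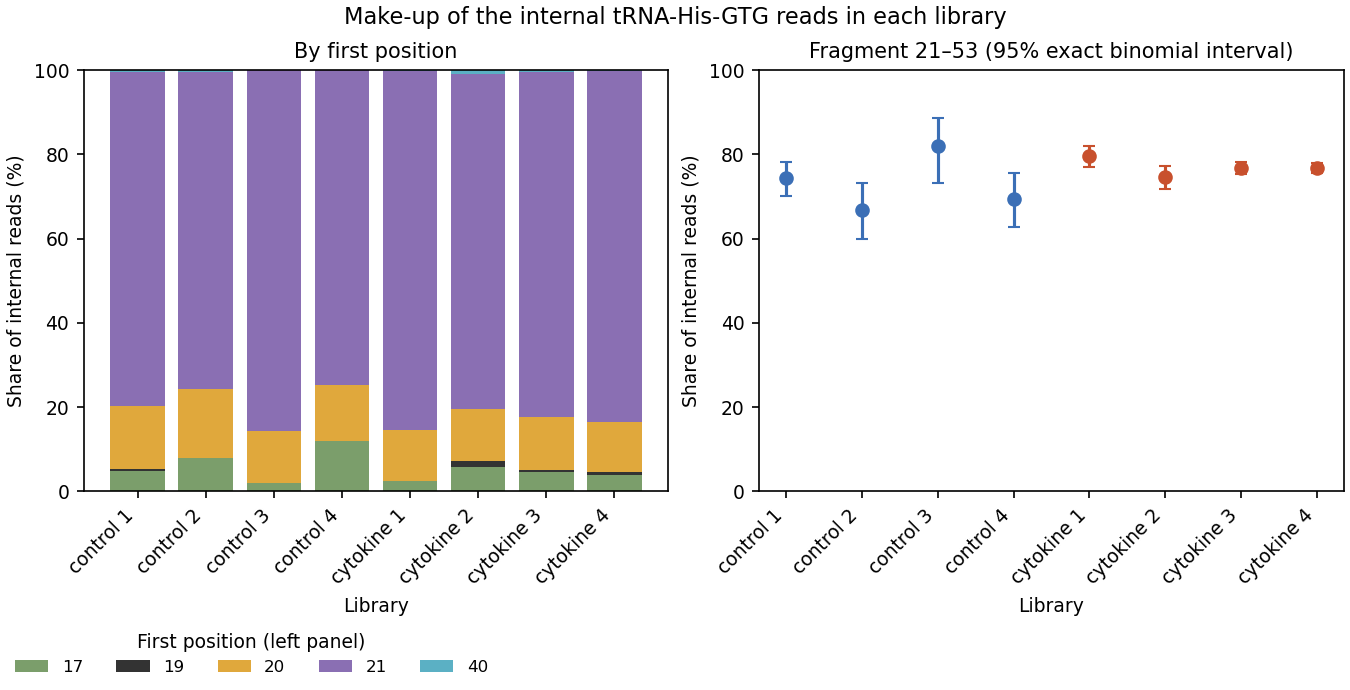
The left panel stacks the share of the reads of the 9 internal tRNA-His-GTG fragments listed up (y axis, percent) by first position in each of the 8 libraries; first position 21 holds 74.8 to 85.7% in the controls and 79.7 to 85.2% after cytokines. The right panel gives the share held by the 21–53 fragment with its exact 95% binomial interval, and the control values, 66.8 to 81.9%, span the cytokine values.

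The 0–53 fragment and the internal fragments from 17–53 to 21–53 share a last base, so their first positions can be compared within each library without a library size. Of the listed tRNA-His-GTG reads that end at 53, those that start at position 0 made up 3.02, 10.2, 9.17 and 18.1% in control replicates 1 to 4. After cytokines they made up 0.208, 0.223, 0.199 and 0.0823%. Every control share was thus more than 10 times every cytokine share. From pooled reads the share was 8.63% of 1008 in the controls, with an exact 95% interval of 6.97 to 10.5%, and 0.144% of 9736 after cytokines, with an interval of 0.0786 to 0.241%. Since 0–53 was listed down and the others up, the direction of this share follows from the listing, and its size is given as a description.

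Other tRNAs gave listed fragments of like shape. The 3 most like 21–53 among 90 listed tRFs, by the root mean square difference of centred log2(CPM + 1) over the 8 libraries, were a mitochondrial tRNA-Met-CAT fragment at 17–52 with a difference of 0.58 and 2 tRNA-Pro-TGG-2 fragments, at 18–52 and 19–52, with 0.59 and 0.61. The mitochondrial fragment had 14.3 ± 9.89 CPM (SD, n = 4) in the controls and 104 ± 26.1 CPM (SD, n = 4) after cytokines. The 18–52 fragment had 50.2 ± 23.4 and 421 ± 252 CPM (SD, n = 4). Within tRNA-His, 20–53 at 0.22 and 21–52 at 0.32 were nearer, and the other 6 members listed up, at 0.78 to 0.99, were farther from 21–53 than those 3 fragments. The 90 tRFs had at least 3 reads in each group, a limit not applied to these members. Among the farther ones 19–53 had 2 control reads, while 17–53 had 61. All the fragments compared here by name were listed up, and this likeness includes the group difference on which they were listed.

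At positions within 2 of 21 and 53 there were 6 listed fragments of other nuclear tRNAs, 3 listed up and 3 listed down. Those listed up were from tRNA-Pro at 19–52. The tRNA-Pro-TGG-2 fragment had 20.1 ± 13.6 CPM in the controls and 165 ± 118 CPM (SD, n = 4) after cytokines, with a log2 fold change of 3.04 ± 0.56 (SE). For the tRNA-Pro-CGG-1 fragment at 19–52 the log2 fold change was 2.60 ± 0.54 (SE), and for tRNA-Pro-TGG-1 it was 3.58 ± 0.63 (SE). The most abundant one listed down, which matches 41 tRNA-Cys-GCA genes and lies at 23–53 in some of them, had 143 ± 67.2 CPM in the controls and 15.7 ± 5.65 CPM (SD, n = 4) after cytokines, a log2 fold change of -3.13 ± 0.47 (SE). A second tRNA-Pro-CGG-1 fragment, at 19–54, falls outside the naming rule and is named after its values were seen, because it was listed down although it has the same first base as the one listed up. It had 11.1 ± 5.39 CPM in the controls and 0.53 ± 1.06 CPM (SD, n = 4) after cytokines. Listed fragments over like stretches of other tRNAs were thus found in both directions, whereas the 6 from tRNA-His within the same limits were all listed up. These limits were set around 21–53, which was itself listed up. The 6 are that fragment and overlapping forms of it, so their shared direction is partly built in. Whether the direction differs between tRNAs was not tested.

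**Figure D4:**
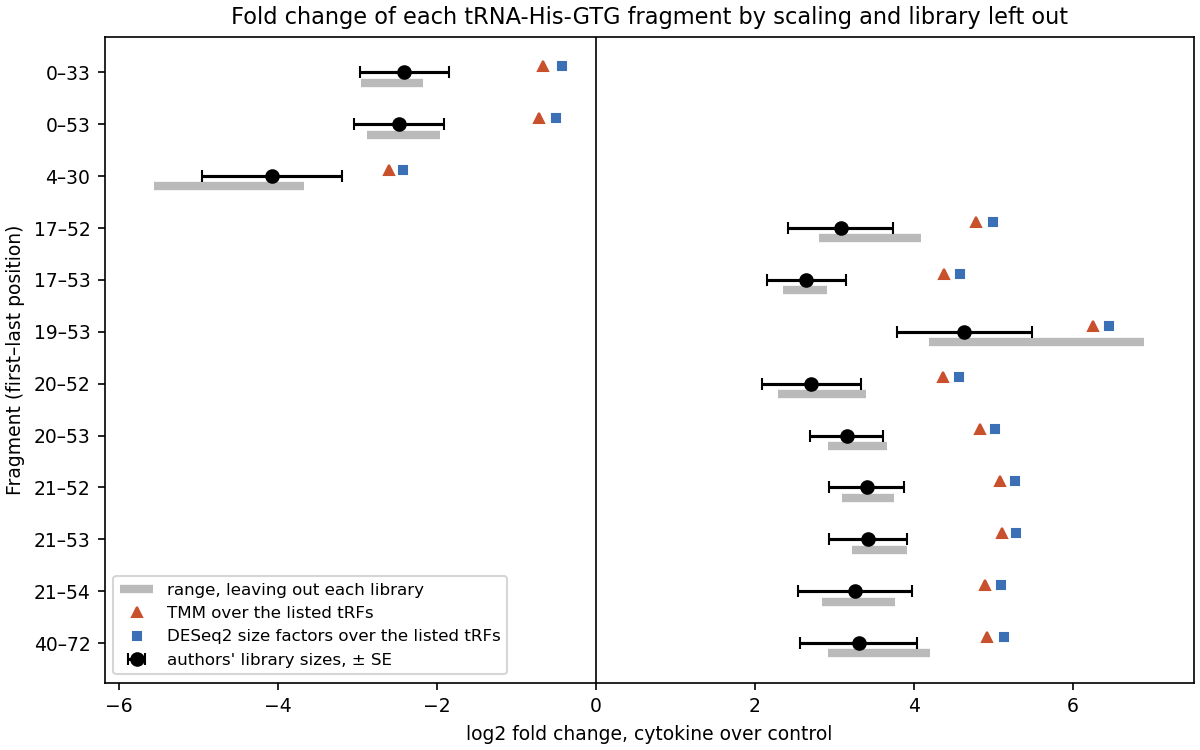
Points give the log2 fold change of each tRNA-His-GTG fragment (x axis, cytokine over control) with its SE, and grey bands give the range over the fits that leave out 1 library each. Triangles and squares, from scaling factors computed over the listed tRFs, lie 1.48 to 1.98 higher, and every value stays on its side of 0.

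The direction of all 12 members was kept in each alternative computed. The size depended on the scaling. With TMM factors or size factors of DESeq2 taken from the 112 listed tRFs, of which most were listed down, the median of all listed log2 fold changes moved up by 1.73 and 1.95. The 21–53 fragment then had 5.11 and 5.29, and the 0–33 piece had -0.66 and -0.43.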

How the data were processed

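Small RNA libraries of 8 samples, 4 control and 4 cytokine, were grouped by the treatment given in the labels. A miRNeasy extraction, an rtStar pretreatment for tRFs and a QIAseq miRNA library kit were used, per the labels' protocols; whether molecular identifiers were collapsed is not given in the sources used here. Per the submitters' processing notes, Bowtie 1 and GRCm38.p6 were used. The authors deposited raw read counts per fragment sequence and library, not normalized, together with, per the file headers, edgeR log2 fold changes and mean log2 CPM, p-values and FDR, and the DESeq base mean, a normalized signal. A further 16 per-library columns were not used.

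Library sizes were recovered as those that return the authors' mean log2 CPM (prior count 2; error under 1e-06) with 1 dispersion of 0.246. With these sizes edgeR 4.0.16 (R 4.3.3) was fitted by quasi-likelihood to the counts of all 112 listed tRFs. Treatment was the only term, with no filter or further scaling. Log2 fold changes were taken from it and no p or call. The SE was computed as the size of the log2 fold change over the square root of its F statistic. Spread was estimated only from tRFs listed for differing between the groups, so these SE may be too small. The authors' DESeq SE was 1.33 for 4–30 against 0.88 here, and 0.42 for 21–53 against 0.49. The common dispersion was 0.162, and the median absolute difference from the authors' log2 fold changes was 0.00218. The fit was also run on simulated counts in which most tRFs were unchanged and the changes were smaller than most of those listed. The listed tRFs were all chosen for differing, so that run cannot show how well the SE hold here. Arms were placed by base pairing, with G-T pairs allowed in the D arm. Binomial intervals are exact (95%) and cover counting error only.

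Members and lists were chosen with earlier results of these data known. The rule for named tRFs took every His-GTG fragment, with all 8 values for the 5 with most reads and for those listed down, the 3 listed tRFs of other tRNAs most like the most abundant one among those with at least 3 reads in each group, and those at like positions, at most 4 of them named by mean CPM. Alternatives were other library sizes and scalings, a DESeq2 1.42.0 fit, a prior count of 1, filters on low counts, the replicate number as a block and leaving out each library.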

Additional observations from a re-analysis of the deposited data

Results flagged for a closer look

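In 48 groups of 4 values, a library was looked for whose gap to the nearest other took most of the group's range. It was found in 6. Chance flags about 1 in 20 groups when values are independent and normally distributed. Some flags come from groups with reads in a single library, and some share the same reads. The 6 can therefore not be set against that rate. In control replicate 1 the 21–53 fragment stood at 543 CPM, beside 171 to 231 CPM in the other controls, and the summed internal fragments stood at 731 CPM, beside 255 to 318. The 0–53 fragment stood at 65.2 CPM in control replicate 4, beside 21.01 to 26.9 CPM. The 4–30 fragment stood at 1.06 CPM in cytokine replicate 4, a single read where the other cytokine libraries had 0. The 19–53 fragment stood at 3.00 CPM in control replicate 1, or 0.411% of its internal reads, where the other controls had 0.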

How the results depend on the processing

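No member changed sign in any of 192 combinations of member and alternative. Of these, 161 moved by less than the SD between libraries and 31 by more, most of the latter under TMM or DESeq2 scaling computed from the listed tRFs. The 161 include the filter of at least 20 reads over the 8 libraries. That filter returned the main value for every member, so it was no separate check. The summed internal fragments, with a difference of 3.36 between mean log2 values, had 5.11 under TMM and 5.35 under DESeq2 scaling, 4.06 with the listed reads of each library as its size, and 3.16 to 3.71 when each library was left out in turn. With the replicate block the 21–53 fragment had 3.45. For the summed fragments the block gives 3.36 again by arithmetic, since pairing groups of equal size leaves a difference of means unchanged. It is therefore no check of that value. Same-numbered libraries were paired by number alone, with correlations of their deviations from -0.29 to 0.17, and 2 of 4 controls correlated best with their own number. Leaving out each library, the share of 21–53 was 1.71 to 6.73 percentage points higher after cytokines and that of first position 21 was 2.46 to 6.11 higher, while the difference for last position 53 ran from -0.80 to 1.42. With a prior count of 1 the log2 fold changes of the members with fewest reads were smaller in size, at -2.55 for 4–30, 3.43 for 19–53 and 2.43 for 40–72. With those listed reads as sizes, values also moved by over 1.5 times for 5 members, to -1.75 for 0–33, -1.85 for 0–53, 3.68 for 17–52, 3.26 for 17–53 and 3.90 for 40–72. Depth limits the members with under 10 reads in a group, and 6 of the 9 fragments listed up had at least 5 reads in every cytokine library.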
